A study of Mus musculus with 6 samples.

Results

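A run of 5 genes next to each other on mouse chromosome 14, Lrit1, Lrit2, Cdhr1, 2610528A11Rik and Ghitm, was followed in the outer wall of the aged mouse eye. The genes were chosen by position around Cdhr1 and Lrit2, which stood among the most negative differences between transgenic and wild-type tissue. Each had a single probe set that the platform annotation names with 1 symbol, so that all 5 of 5 were measured, among 22180 genes in all. Because the comparison of genotypes served to choose them, their differences are given as a description with no test.

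RNA came from the retinal pigment epithelium (RPE), dissected together with choroid and sclera, of animals aged 12 months. The 5XFAD group held 3 samples of mice heterozygous for the transgene, and the wild type group held 3 samples of non-transgenic littermates; no mouse received a treatment. In 5XFAD animals the neuronal Thy1 promoter drives human amyloid precursor protein and presenilin 1 with familial Alzheimer's disease mutations. The labels do not give strain or sex, nor whether a sample is 1 animal or a pool, so that the spread between samples may be partly technical. Levels are log2 intensities normalized by RMA, with 1 array per sample. No detection calls were used, and a level cannot be compared between genes because probes differ in response. In such bulk tissue, fewer cells of a type and less RNA per cell cannot be told apart.

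Cdhr1 encodes a cadherin at the base of the outer segment, the light-sensing stack of discs of rods and cones, and its loss in humans causes degeneration of both. Lrit1 and Lrit2 encode membrane proteins with leucine-rich repeats and an immunoglobulin-like domain, and Lrit1 protein sits at the synapse between photoreceptors and bipolar cells. 2610528A11Rik, also called Gpr15l, encodes a small secreted peptide of barrier epithelia that binds the receptor GPR15. Ghitm, also called Tmbim5, encodes a protein of the inner mitochondrial membrane found in most tissues. The neighbour beyond Lrit1 is Rgr, which encodes an opsin of the RPE.

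In the RefSeq gene table (GRCm38.p6) no other gene lay between the first and the last of the 5. Lrit1 and Lrit2 run on the plus strand, and Cdhr1, 2610528A11Rik and Ghitm on the minus strand. The span annotated for Lrit1 overlaps those of Rgr and Lrit2, so that part of their signal could be shared, while the spans of Cdhr1, 2610528A11Rik and Ghitm overlap no other gene. Rgr runs on the minus strand from a promoter window at chr14:37049015-37049264. By the starts of their promoter windows, Rgr and Lrit1 therefore run away from each other. These starts alone do not account for the overlap of their annotated spans, and whether any signal is shared was not tested. All 5 had promoter windows in RefSeq. The 250 bases before the start are shown for the 3 genes whose groups did not overlap and for Lrit1, the sister of Lrit2, to set the neighbours' promoters side by side. Where RefSeq lists several starts the most upstream was taken. Capitals mark TAATCC, the core bound by the photoreceptor and RPE factors CRX and OTX2, TGCTGA, part of the site of the rod factor NRL, and TATAAA, the core of the TATA box, each searched on both strands.
Lrit1: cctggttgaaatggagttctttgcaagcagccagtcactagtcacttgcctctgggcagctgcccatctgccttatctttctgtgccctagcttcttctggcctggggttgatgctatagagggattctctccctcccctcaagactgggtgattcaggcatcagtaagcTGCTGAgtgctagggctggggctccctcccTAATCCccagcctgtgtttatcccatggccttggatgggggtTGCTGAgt
Lrit2: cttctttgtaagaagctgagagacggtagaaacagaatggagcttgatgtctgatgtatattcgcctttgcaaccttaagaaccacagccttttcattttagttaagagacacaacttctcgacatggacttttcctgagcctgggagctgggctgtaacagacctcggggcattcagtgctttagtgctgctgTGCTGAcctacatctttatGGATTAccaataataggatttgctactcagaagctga
Cdhr1: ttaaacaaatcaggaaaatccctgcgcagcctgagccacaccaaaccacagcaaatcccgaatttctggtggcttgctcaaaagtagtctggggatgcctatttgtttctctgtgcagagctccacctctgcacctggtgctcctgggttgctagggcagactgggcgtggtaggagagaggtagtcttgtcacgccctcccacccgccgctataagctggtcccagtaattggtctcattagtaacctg
2610528A11Rik: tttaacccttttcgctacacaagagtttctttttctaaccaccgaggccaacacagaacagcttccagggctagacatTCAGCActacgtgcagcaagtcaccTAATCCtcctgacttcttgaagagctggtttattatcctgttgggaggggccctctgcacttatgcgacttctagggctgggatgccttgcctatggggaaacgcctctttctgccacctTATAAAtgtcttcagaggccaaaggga

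These windows lie at chr14:37054580-37054829 (Lrit1, plus strand), chr14:37067779-37068028 (Lrit2, plus strand), chr14:37098348-37098597 (Cdhr1, minus strand) and chr14:37110102-37110351 (2610528A11Rik, minus strand) of GRCm38.p6. The window of Lrit2 held 1 TAATCC, read on the opposite strand as GGATTA 31 bases before the start, and 1 TGCTGA 50 bases before it. Lrit1 had 1 TAATCC, 44 bases before its start, and 2 copies of TGCTGA. 2610528A11Rik also held 1 of each, TAATCC 141 bases before the start and TGCTGA, on the opposite strand, 166 bases before it, and a TATAAA 21 bases before it. The letters of the 3 motifs were not in the windows of Cdhr1 and Ghitm. Among 27025 mouse promoter windows of the same 250 bases, TAATCC was in 6.37%, TGCTGA in 15.84% and TATAAA in 12.98%. The motifs do not overlap each other in the windows shown. Of the 5 windows that of Ghitm had the most CpG pairs, 18, against 6 in Cdhr1, 5 in 2610528A11Rik, 4 in Lrit2, 0 in Lrit1 and a median of 6 over all windows. The motif matches describe the letters of these windows and show no binding.

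Cdhr1 and Lrit2 were lower in 5XFAD tissue, 2610528A11Rik was higher, and the groups of Lrit1 and Ghitm overlapped. The levels of Cdhr1 were 8.79, 8.92 and 8.66 in wild type replicates 1, 2 and 3 and 7.93 in each of the 3 5XFAD arrays. All 5XFAD arrays thus lay below all wild-type arrays, with a gap of 0.73 between the nearest values. Means of 7.93 ± 0.0016 for 5XFAD against 8.79 ± 0.13 for wild type (SD, n = 3 per group) give a difference of -0.86 ± 0.10 (log2, ± SE of the fit) or 0.552-fold. The 3 5XFAD values were closer to each other than the wild-type values were.

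Lrit2 levels were 6.48, 6.65 and 6.61 in wild type replicates 1 to 3 and 5.68, 5.81 and 5.45 in 5XFAD replicates 1 to 3. The groups were again apart, by 0.67 at the nearest values. Its difference was -0.93 ± 0.12 (log2, ± SE), or 0.523-fold, from a mean of 6.58 ± 0.09 in wild type to 5.65 ± 0.18 in 5XFAD (SD, n = 3). Over all 22180 genes, 4 had a more negative difference than Lrit2 and 10 a more negative one than Cdhr1, which is how the pair came to be chosen.

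Lrit1, on the other side of Lrit2, did not separate the genotypes. Its levels were 6.07, 5.87 and 6.02 in wild type replicates 1 to 3 and 6.02, 5.46 and 5.78 in 5XFAD replicates 1 to 3. Only 5XFAD replicates 2 and 3 lay below the wild-type values, while replicate 1 was at the level of wild type replicate 3. The difference was -0.24 ± 0.14 (log2, ± SE), and leaving out 5XFAD replicate 2 brought it to -0.09, leaving out 5XFAD replicate 1 to -0.37.

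2610528A11Rik, on the far side of Cdhr1, went the other way. Its levels were 5.71, 5.45 and 5.73 in wild type replicates 1 to 3 and 7.01, 7.74 and 6.45 in 5XFAD replicates 1 to 3. All 5XFAD values lay above all wild-type values, and they spread more widely, with an SD of 0.65 against 0.16. The means of 7.07 and 5.63 (n = 3 per group) give a difference of 1.44 ± 0.27 (log2, ± SE), or 2.71-fold.

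Ghitm, the last of the run, was at 9.32, 9.51 and 9.22 in wild type replicates 1 to 3 and at 9.45, 9.38 and 8.98 in 5XFAD replicates 1 to 3. The groups overlapped, with 5XFAD replicate 3 as the lowest array. The difference was -0.08 ± 0.14 (log2, ± SE).

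The members are given no test result here, for the reason stated at the start. Over the whole table, limma's moderated test with Benjamini-Hochberg adjustment called 0.0225% of genes at 0.05. It called 0 with 5XFAD lower, while 3.39% had 5XFAD lower before adjustment (p under 0.05). That 0 depended on the processing, since with another prior (trended and robust) 3 were called lower. The 2 members whose groups did not overlap with 5XFAD lower stand against 6.62% of all genes, and the single member with 5XFAD higher against 4.72%. Since the comparison was used to choose the genes, nothing is read from these counts.

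**Figure D1:**
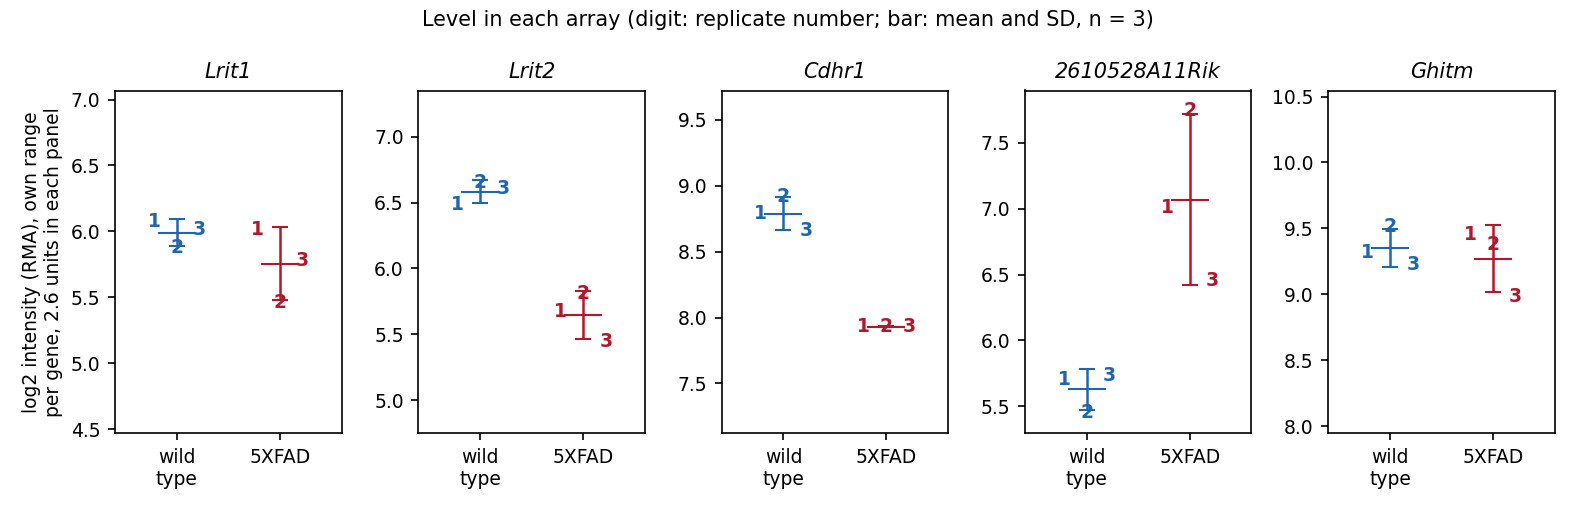
Log2 intensity (y axis, with its own range in each panel because levels do not compare between genes) of the 5 genes in wild type and 5XFAD, in chromosome order. Digits are the replicate numbers of single arrays and bars the mean and SD of 3 arrays; Cdhr1 and Lrit2 lie lower in all 5XFAD arrays, 2610528A11Rik higher, and the groups of Lrit1 and Ghitm overlap.

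The genes around the run ran from -0.23 to 0.43 (log2 difference). On the Rgr side 5 of the 10 measured genes had a difference below 0 (median 0.02), and on the Ghitm side 5 of 10 (median -0.01). Over all genes 52.8% had a difference below 0, and the median was -0.01. In limma 0 of these 20 passed the adjusted threshold (lowest Benjamini-Hochberg adjusted p = 0.58), and 1 had an unadjusted p under 0.05, where 6.28% of all genes do. That one was Grid1, a glutamate receptor subunit gene, at 0.37 ± 0.11 (log2 difference ± SE), which was also the only flanking gene whose groups did not overlap, against 11.3% of all genes in either direction. The highest was the melanopsin gene Opn4, at 0.43 ± 0.23 with overlapping groups.

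Next to Lrit1, Rgr had levels of 13.18, 13.41 and 13.29 in wild type replicates 1 to 3 and 13.02, 12.94 and 13.23 in 5XFAD replicates 1 to 3. Of the 5XFAD arrays, replicate 3 alone reached into the wild-type range, and the difference of -0.23 ± 0.12 did not pass (limma, Benjamini-Hochberg adjusted p = 0.85). Ccser2, the next gene, differed by -0.07 ± 0.10, 4930474N05Rik by -0.10 ± 0.11 and 4930596D02Rik by 0.10 ± 0.13 (log2, ± SE). On the Ghitm side the difference was 0.11 ± 0.12 for Nrg3, which encodes a neuregulin, 0.01 ± 0.10 for its antisense gene Nrg3os, 0.06 ± 0.10 for 1700109I08Rik and -0.02 ± 0.11 for Sh2d4b. Along the 25 genes the 3 members with separated groups stood next to each other, and the sign changed between Cdhr1 and 2610528A11Rik. The run was chosen around Cdhr1 and Lrit2 for their differences, so nothing is read from this placing or from the contrast with the flanking genes.

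**Figure D2:**
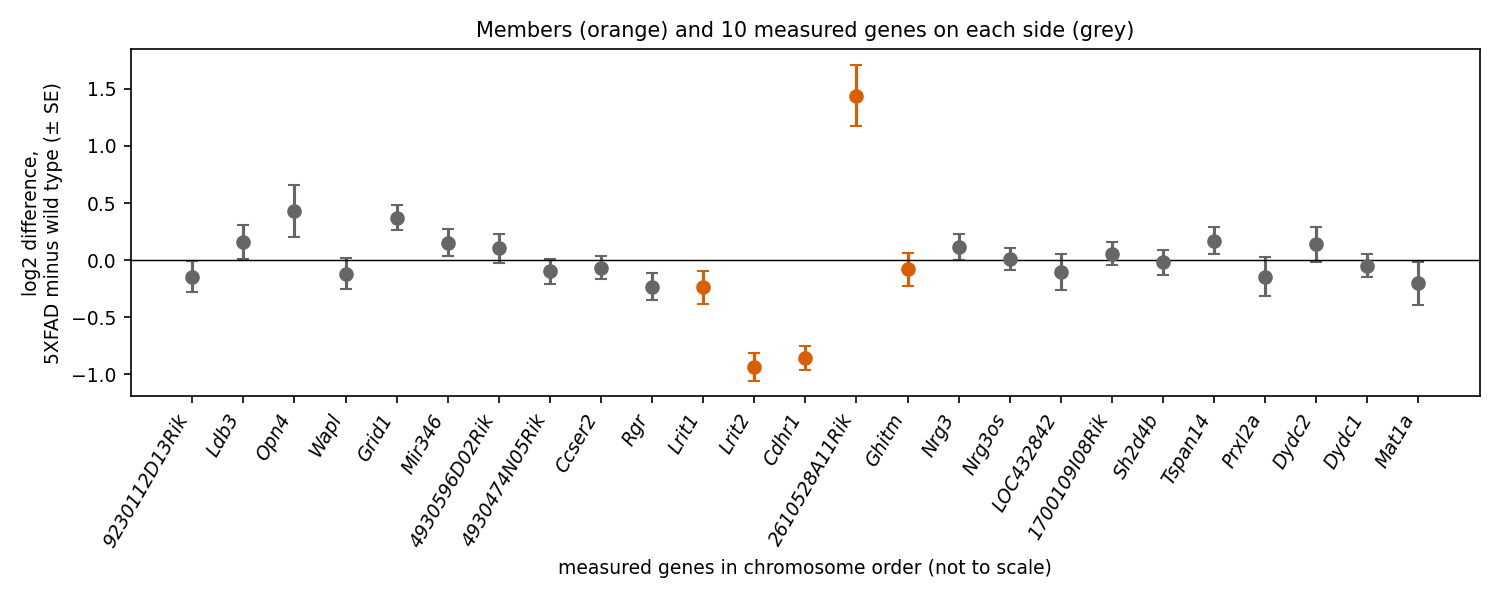
Log2 difference, 5XFAD minus wild type (y axis, ± SE of the fit, 3 arrays per group), of 25 measured genes in chromosome order (x axis, not to scale). The 5 members are orange and the 10 measured genes on each side grey. Lrit2 (-0.93), Cdhr1 (-0.86) and 2610528A11Rik (1.44) lie outside the range of the grey points (-0.23 to 0.43). The run was chosen around Lrit2 and Cdhr1 for their differences.

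Cdhr1 is known as a photoreceptor gene, and photoreceptor lists were set beside it. In the rod list, 24 genes were measured and 22 were below 0, with a median of -0.16. By limma 0 of the 24 passed the adjusted threshold, and 2 were lower and 1 higher at an unadjusted p under 0.05, where 3.39% of all genes are lower and 2.89% higher. The most negative was the exchanger gene Slc24a1, at -0.65 ± 0.20 (log2 difference ± SE; limma, Benjamini-Hochberg adjusted p = 0.59), with non-overlapping groups. The disc rim gene Rom1 differed by -0.32 ± 0.10, its groups also apart. Abca4, a retinal transporter of the discs, differed by -0.25 ± 0.13, Rgs9, which speeds the end of the light response, by -0.30 ± 0.17 and the rod transducin gene Gnat1 by -0.15 ± 0.61. Gucy2f, a guanylate cyclase gene, was at 0.31 ± 0.12.

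The rod list mean varied between arrays in another order than Cdhr1 and Lrit2. It was 6.94, 6.32 and 6.80 in wild type replicates 1 to 3 and 6.80, 6.52 and 6.24 in 5XFAD replicates 1 to 3, so that the groups overlapped. Wild type replicate 2 had the lowest rod mean of its group and the highest Cdhr1 and Lrit2. The list was mixed in this respect. In wild type replicates 1 to 3 Gnat1 was at 9.28, 7.30 and 8.89, lowest in replicate 2 like the mean. Slc24a1 was at 9.02, 9.54 and 9.27, highest in replicate 2 like Cdhr1, and so were Abca4 (9.04, 9.44 and 9.21) and Rgs9 (9.47, 9.62 and 9.46). 5XFAD replicate 1 and wild type replicate 3 had the same rod mean, 6.80, while Cdhr1 was 7.93 in the first and 8.66 in the second, and Lrit2 was 5.68 and 6.61. Taken as Cdhr1 minus the rod list mean of the same array, the values were 1.13, 1.41 and 1.70 in 5XFAD replicates 1 to 3 and 1.85, 2.59 and 1.86 in wild type replicates 1 to 3, still without overlap. Lrit2 minus the rod mean was -1.13, -0.70 and -0.79 in 5XFAD and -0.46, 0.33 and -0.19 in wild type, also apart. With the rod mean as a covariate the differences were -0.89 ± 0.11 for Cdhr1 and -0.93 ± 0.13 for Lrit2 (log2, ± SE). Lrit1 minus the rod mean overlapped between the groups, with means of -0.77 ± 0.30 in 5XFAD and -0.70 ± 0.22 in wild type (SD, n = 3). These values carry the genotype difference by which Cdhr1 and Lrit2 were chosen, and the part of photoreceptors in it was not tested beyond this.

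In the cone list 10 of 15 genes were negative, with a median of -0.09, and by limma 0 passed the adjusted threshold and 1 was lower at an unadjusted p under 0.05. That gene, the cone phosphodiesterase Pde6c, was at 6.59, 6.84 and 6.14 in wild type replicates 1 to 3 and at 5.81, 5.70 and 5.80 in 5XFAD replicates 1 to 3, a difference of -0.76 ± 0.16 (log2, ± SE; limma, Benjamini-Hochberg adjusted p = 0.35). Like Cdhr1 it was lower in every 5XFAD array than in any wild-type array. The short-wave opsin gene Opn1sw was at -0.38 ± 0.19 and its groups overlapped, and the potassium channel gene Kcnv2 was at -0.22 ± 0.16. Beside Pde6c, the cone genes of highest level were Thrb (-0.14 ± 0.12), Ccdc136 (-0.0005 ± 0.12) and Gngt2 (0.05 ± 0.13), all with overlapping groups. Among genes of the outer segment, its cilium and the matrix around it, 12 of 19 were negative with a median of -0.07, and in limma 0 passed, with 1 lower at an unadjusted p under 0.05. Unc119, a carrier of transducin, was at -0.43 ± 0.11, whereas Prom1, whose product sits with Cdhr1 protein at the base of the outer segment, was at 0.24 ± 0.12.

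Of the factors whose motifs were searched, Crx differed by -0.15 ± 0.18 (log2, ± SE) and Nrl by -0.12 ± 0.14, both with overlapping groups. Otx2, a factor of the RPE as well as of photoreceptors, was at 9.20, 9.42 and 9.28 in wild type replicates 1 to 3 and at 8.76, 8.79 and 9.14 in 5XFAD replicates 1 to 3, lower in all 5XFAD arrays, a difference of -0.40 ± 0.13 (limma, Benjamini-Hochberg adjusted p = 0.64). In the list of 9 measured photoreceptor factors 6 were negative, with a median of -0.14, and 0 passed in limma, with 1 lower at an unadjusted p under 0.05.

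Lrit1 belongs to the synapse of photoreceptors with ON bipolar cells, and 17 genes of that synapse were measured. They had a median difference of -0.01, with 10 negative, and 0 passed in limma, with 1 higher at an unadjusted p under 0.05. The family member Lrit3, which lies elsewhere in the genome, was at -0.21 ± 0.13 (log2, ± SE), close to the value of Lrit1. Grm6, the glutamate receptor of ON bipolar cells that Lrit1 protein binds, was at -0.26 ± 0.12, and the channel gene Trpm1, which melanocytes also express, at 0.62 ± 0.21. Of 14 cadherin-related genes outside the run 7 were negative, with a median of -0.01 and differences from -0.20 to 0.37, and 0 passed in limma, with 1, Fat1, higher at an unadjusted p under 0.05.

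RPE genes were mostly lower in the same 5XFAD arrays as Cdhr1 and Lrit2. Of 18 measured RPE genes 17 were below 0 (median -0.47), and 13 had non-overlapping groups with 5XFAD lower, where 6.62% of all genes do. In limma 0 passed the adjusted threshold and 14 were lower at an unadjusted p under 0.05, where 3.39% of all genes are. Among these 14 were Rdh10 (-0.60 ± 0.10), Rrh (-0.64 ± 0.11), Slc16a8 (-0.61 ± 0.10) and Lrat (-0.62 ± 0.11, all log2 ± SE). The RPE list mean was 10.54, 10.74 and 10.66 in wild type replicates 1 to 3 and 10.22, 10.14 and 10.34 in 5XFAD replicates 1 to 3. In wild type it was highest in replicate 2, as were Cdhr1 and Lrit2, while in 5XFAD its order of arrays was the reverse of that of Lrit2, and Cdhr1 was level. Rpe65, the isomerase of the visual cycle and a defining gene of the labelled tissue, was at 12.71, 12.64 and 12.78 in wild type replicates 1 to 3 and at 12.41, 12.23 and 12.49 in 5XFAD replicates 1 to 3, lower in all 5XFAD arrays. Its difference of -0.33 ± 0.11 did not pass (limma, Benjamini-Hochberg adjusted p = 0.64). Cdhr1 minus the RPE list mean lay between -2.41 and -2.21 in 5XFAD and between -1.996 and -1.75 in wild type, and Lrit2 minus that mean lay between -4.90 and -4.33 in 5XFAD and between -4.09 and -4.05 in wild type. Taken relative to the RPE mean, the differences were -0.45 for Cdhr1 and -0.52 for Lrit2 (log2). Relative to the rod mean they were -0.69 and -0.77. The part of the RPE in the differences of Cdhr1 and Lrit2 was not tested beyond this.

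**Figure D3:**
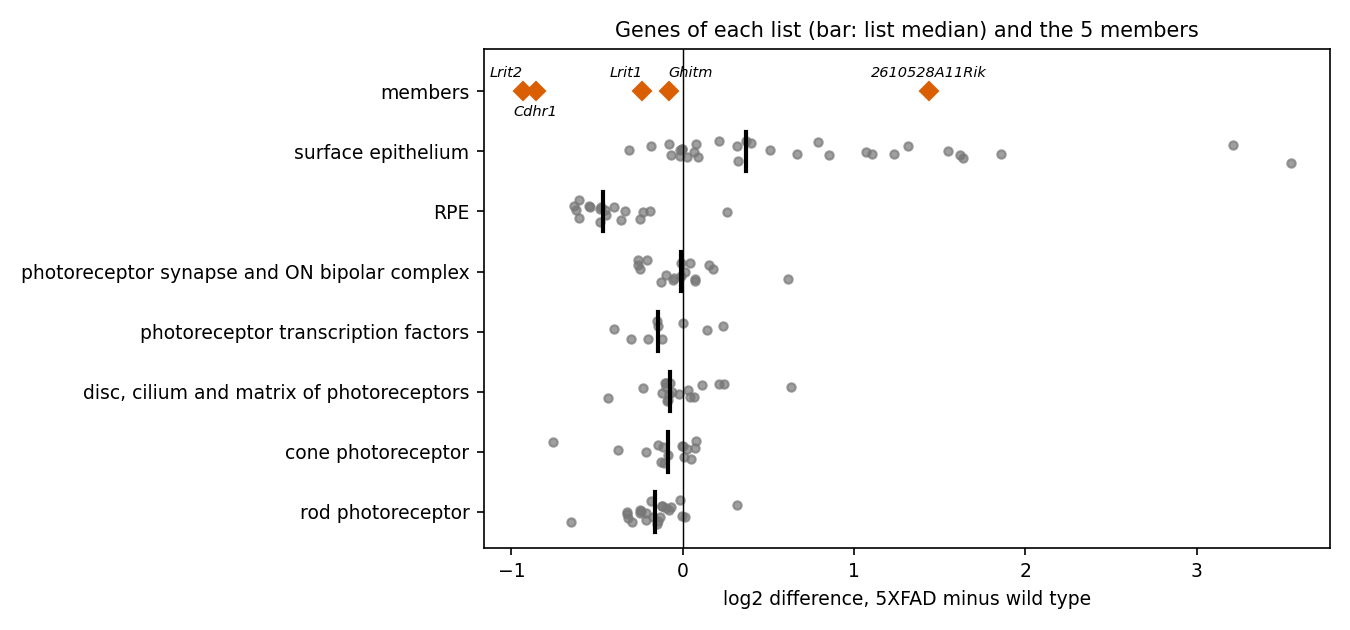
Log2 difference, 5XFAD minus wild type (x axis), of the measured genes of 7 lists (grey points, black bar at the list median) and of the 5 members (orange). The median bar is at -0.16 for rods, -0.47 for RPE and 0.37 for surface epithelium, and 2610528A11Rik lies among the higher genes of the surface epithelium list.

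2610528A11Rik is an epithelial gene, and surface epithelium genes were higher in the same arrays. Of 31 measured genes of the list 23 were above 0 (median 0.37), and 17 had non-overlapping groups with 5XFAD higher, where 4.72% of all genes do. In limma with Benjamini-Hochberg adjustment 4 rose past the threshold, the keratin genes Krt4 (3.21 ± 0.22, adjusted p = 0.0018), Krt6a (1.86 ± 0.17, 0.0093), Krt15 (3.55 ± 0.34, 0.013) and Krt13 (1.55 ± 0.16, 0.021). At an unadjusted p under 0.05 in limma 16 were higher and 1 lower, where 2.89% of all genes are higher and 3.39% lower. The lower one was Ivl, a gene of the cornified envelope, at -0.31 ± 0.10. Another 13 overlapped between the groups, among them Cdh1 (-0.08 ± 0.10), Epcam (0.08 ± 0.10) and Trp63 (0.09 ± 0.12). The list mean lay between 6.05 and 6.46 in 5XFAD and between 5.51 and 5.56 in wild type.

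The order of the 5XFAD arrays differed between 2610528A11Rik and the list. The list mean was highest in 5XFAD replicate 3 (6.46), followed by replicates 2 (6.24) and 1 (6.05), whereas 2610528A11Rik was lowest in replicate 3 and highest in replicate 2. Minus the list mean of the same array, 2610528A11Rik was 0.96, 1.501 and -0.005 in 5XFAD replicates 1 to 3 and 0.17, -0.11 and 0.22 in wild type replicates 1 to 3, so that the groups overlapped. The part of epithelial cells in its difference was not tested beyond this. The receptor gene Gpr15 was at 4.17 ± 0.03 in 5XFAD and 4.11 ± 0.36 in wild type (SD, n = 3), a difference of 0.06 ± 0.17 (log2, ± SE), and Susd2, whose product also binds the peptide, was at -0.03 ± 0.15.

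Genes of the family and pathway of Ghitm gave 0 calls. The 6 measured relatives of the TMBIM family ran from -0.09 to 0.12, with Tmbim6 at -0.09 ± 0.10 and Tmbim4 at 0.12 ± 0.10 (log2 difference ± SE), and 0 passed in limma, with none at an unadjusted p under 0.05. Of 13 measured genes of mitochondrial ion exchange and cristae 5 were negative, with a median of 0.04 and 0 passing in limma. Letm1, a mitochondrial cation exchanger gene whose product Ghitm protein is known to bind, was at -0.15 ± 0.10, with 5XFAD lower in all arrays. Chchd3, a cristae gene, was at 0.31 ± 0.12, with 5XFAD higher in all arrays and an unadjusted p under 0.05.

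The likeness of the members was measured as the root mean square difference between profiles over the 6 arrays, each gene taken relative to its own mean. It includes the difference between genotypes that chose the members and is a description. Of the 22179 other genes Cdhr1 was the closest to Lrit2, at 0.14, and 7 genes were closer to Cdhr1 than Lrit2 was. Past the predicted genes, the 5 closest to Cdhr1 were the zinc transporter gene Slc39a4 (0.10), the tissue factor gene F3 (0.10), the ERK phosphatase gene Dusp6 (0.12), the nuclear receptor gene Nr2e1 (0.12) and the integrin gene Itgav (0.13), of which Slc39a4, Dusp6, Itgav and Nr2e1 were also the next closest to Lrit2 after Cdhr1. No gene of any of the 16 gene lists, those of photoreceptors and of the RPE included, was among the 5 closest to either. Lrit1 was at 0.37 from Cdhr1, with 2262 genes closer, and at 0.43 from Lrit2, with 3518 closer.

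The 5 genes closest to 2610528A11Rik were Krt13 (0.24), Krt6b (0.37), Ms4a4a (0.39), the skin protease gene Asprv1 (0.39) and Fabp7 (0.42), a fatty acid carrier. Krt13, a keratin of mucosal epithelia, was like 2610528A11Rik highest in 5XFAD replicate 2, at 7.25 against 6.66 and 6.72 in replicates 1 and 3, and lay between 5.20 and 5.47 in wild type.

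**Figure D4:**
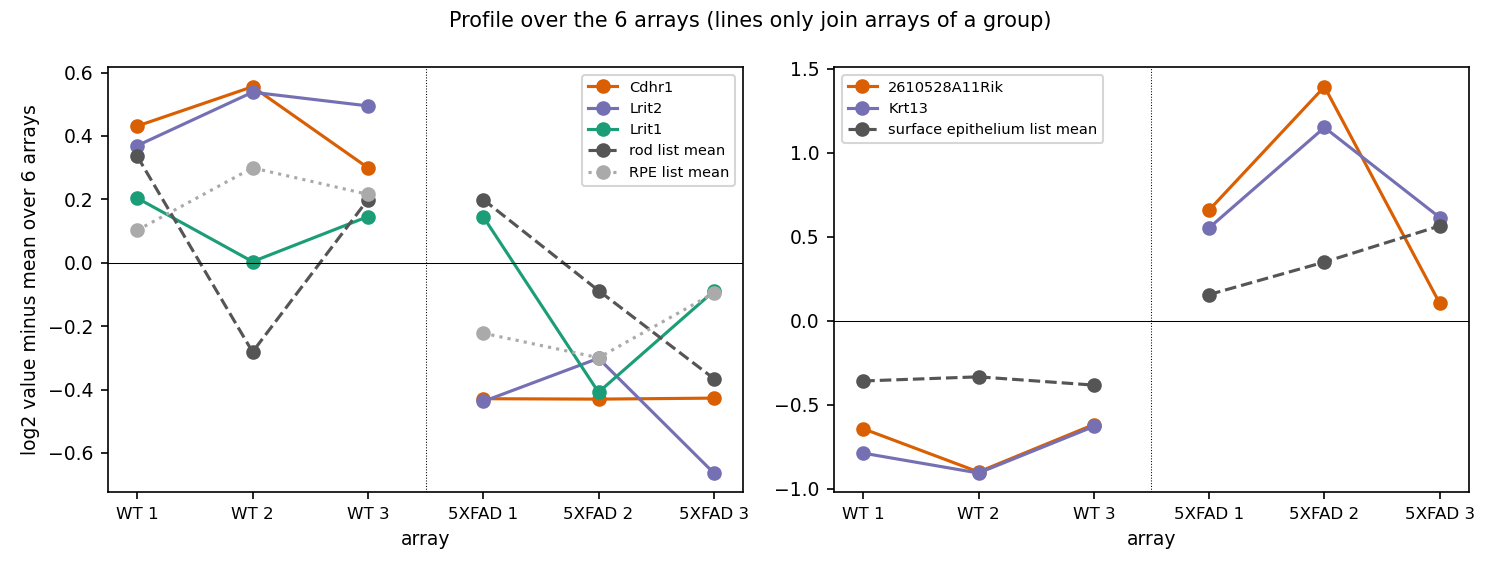
Log2 value minus the mean over the 6 arrays (y axis) in each array (x axis), on the left for Cdhr1, Lrit2, Lrit1 and the means of the rod and RPE lists, on the right for 2610528A11Rik, Krt13 and the mean of the surface epithelium list. Cdhr1 and Lrit2 separate the genotypes while the rod mean does not, and 2610528A11Rik and Krt13 peak in 5XFAD replicate 2 while the epithelial mean is highest in replicate 3.

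The median log2 intensity per array lay between 5.59 and 5.71. Among other tissues the dissection could hold, the mean of 16 skeletal muscle genes ran from 5.98 to 7.01 in 5XFAD and from 5.49 to 6.60 in wild type, and that of 9 lens genes from 5.61 to 5.68 and from 5.66 to 5.88. The mean of 17 genes of other retinal neurons and glia ran from 5.997 to 6.14 and from 5.99 to 6.02, of 9 melanocyte genes from 10.37 to 10.66 and from 10.29 to 10.51, and of 12 macrophage genes from 8.64 to 9.02 and from 8.66 to 8.70. In limma 0 genes of these 5 lists passed the adjusted threshold. At an unadjusted p under 0.05 muscle had 5 genes higher, macrophages 3, melanocytes 1 and lens 0, and the other retinal cells 3 higher and 2 lower. Their part in the members' values was not tested.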

How the data were processed

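The study used Affymetrix whole-transcript arrays, 1 for each of 6 samples of biotin-labelled cDNA. The deposited log2 intensities were made by the authors with Affymetrix Expression Console 1.1 and RMA (background correction, quantile normalization, probe set summary), per the submitters' processing notes. For filters and the genome build, nothing was given in the sources used here. Groups came from the sample titles. Of 33793 probe sets 23521 had 1 gene symbol in the platform annotation, and the one of highest mean was kept for each of 22180 genes. limma 3.58.1 (R 4.3.3) compared the groups with a two-sided test, 4 residual and 5.23 prior degrees of freedom, p-values adjusted by Benjamini-Hochberg over the whole table (threshold 0.05), a step tested on simulated data. The members and the 16 gene lists were chosen with earlier results of these data known.

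The text names the members, the 5 nearest measured genes on each side, up to 4 genes of smallest p per list (for rods and cones also of highest level), and the 5 closest profiles, passing over predicted genes and small RNAs. Grid1, Opn4, Crx, Nrl, Lrit3, Rpe65, Ivl, Cdh1, Epcam and Trp63 were added for their role or after their values were seen. Alternatives were a replicate block, filters on dim genes, other scalings and priors, array weights, all probe sets of a gene, list means as covariates, and each array left out. Sequences are from RefSeq tables of GRCm38.p6. The number of arrays limits the precision.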

Additional observations from a re-analysis of the deposited data

How the results depend on the processing

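Cdhr1 and Lrit2 stayed negative under all 18 alternatives run for each, from -0.92 to -0.75 and from -1.14 to -0.54, and 2610528A11Rik stayed positive under 17 of 18. The replicate block, filters on dim genes, trended, robust prior and choices of probe sets could not, by design, move a member's difference. Those alternatives add nothing to these counts. With each array left out in turn the differences ran from -0.92 to -0.79 for Cdhr1, -0.37 to -0.09 for Lrit1, -1.02 to -0.84 for Lrit2, 1.102 to 1.75 for 2610528A11Rik and -0.17 to 0.06 for Ghitm. The means of the RPE and surface epithelium lists nearly follow the genotype, so that as covariates they raised the standard errors to between 0.29 and 0.81. With the RPE mean the differences were -0.75 for Cdhr1, -0.17 for Lrit1, -1.14 for Lrit2, -0.12 for 2610528A11Rik and -0.36 for Ghitm. The medians were then -1.16 for rods, -0.24 for cones and 0.88 for surface epithelium. With the epithelium mean the differences were -0.91 for Cdhr1, 0.17 for Lrit1, -0.54 for Lrit2, 2.52 for 2610528A11Rik and 0.68 for Ghitm. The medians were then 0.56, 0.17 and -0.74 for rods, cones and RPE. Both covariates left 0 genes called in limma. No list mean was used as a covariate for its own median.

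The count of called genes, 5, was 8 without the dimmest 30% of genes, 9 with arrays centred on their medians, 9 with the trended, robust prior and 8 with array weights. Genes called as lower, 0 of the 5, were 2 with either filter on dim genes, 3 with that prior and 1 with array weights, another quantile normalization, the mean of all probe sets or without wild type replicate 1. The count of called genes ran from 3 (without wild type replicate 3) to 19 (without wild type replicate 2) with arrays left out. The rod median moved to 0.02 when 5XFAD replicate 3 was left out and to -0.37 when wild type replicate 2 was. Without the dimmest 50% of genes the surface epithelium median was 0.16, and Lrit1 was among the genes left out. Same-numbered samples correlated at -0.06, -0.05 and 0.13 in their deviations from the group means. Other pairings ran from -0.08 to 0.13, and with 3 arrays per group such values cannot settle whether the replicate numbers pair samples. With the replicate block the members' differences were the same and 6 genes were called. The median of the flanking genes, added after the data were seen, was -0.12 without the dimmest 50% of genes and -0.08 and 0.06 with the RPE and epithelium means as covariates.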
